A study of Mus musculus with 6 samples.

Results

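The genes described are those of Met, EGFR and ErbB receptor signalling: the receptors Met, Egfr, Erbb2, Erbb3 and Erbb4 and the ligands Hgf, Egf, Hbegf, Areg and Nrg1. They were chosen by gene name, with earlier results of the light damage comparison on these arrays known, so their changes between the groups are a description and not independent evidence. Of the 10 genes, 9 were measured by 20 probe sets assigned to that gene alone, out of 18193 genes and 45037 probe sets. These were 13 probe sets of the 5 receptors and 7 of 4 ligands. Areg, the gene of the ligand amphiregulin, was not analysed here, as no probe set is assigned to it alone in the annotation used.

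RNA was taken from BALB/c retinas (an albino mouse strain) on 6 Affymetrix arrays. All mice of both groups were kept in the dark for 1 week. The 3 dark adapted arrays come from mice that received no damaging light, and the 3 light damaged arrays from mice then given white fluorescent light of 6000 lux for 6 h, whose retinas were collected 24 h afterwards. The comparison addresses how RNA levels of the retina differ after light damage. The labels do not give the age of the mice, a genetic change, or whether each array is a separate animal, so a p-value here measures the spread among these arrays alone, and that spread may be technical. Values are log2 expression from RMA, so a difference of 1 is a 2-fold change, and the level of 1 probe set cannot be set against that of another. The 6 arrays had medians from 6.15 to 6.18, and their number limits the precision of every value. The arrays carried retina markers, as the mean log2 level of 6 rod photoreceptor genes was 12.1 to 12.6 in dark adapted arrays. Lens genes were high as well, with Cryaa at 12.97, 13.51 and 13.84 in dark adapted replicates 1 to 3. The lens gene Bfsp1 was at 7.30, 7.83 and 9.84 in dark adapted and 6.07, 6.87 and 8.69 in light damaged replicates. Bfsp1, Cryaa, Crygs, Lim2 and Mip were each highest in replicate 3 of both groups. Bfsp2, Krt12 and Krt5, the other lens and cornea genes listed, were not. The source of this RNA was not tested. In bulk retina, fewer cells of a type and less RNA per cell cannot be told apart.

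Met and the ErbB proteins are receptor tyrosine kinases of the cell surface. Hepatocyte growth factor, encoded by Hgf, binds Met. Ligands of the EGF family bind EGFR, ErbB3 or ErbB4, which signal as dimers with each other or with ErbB2, and ErbB2 has no known ligand of its own. Both receptor groups act through adaptor proteins on the RAS to ERK kinase cascade, on PI3 kinase and AKT, and on STAT3, and both raise immediate early genes and their own inhibitors. Many EGF family ligands are made as membrane proteins and are released by shedding proteases. EGFR is known from Müller glia of the retina and Met from the retinal pigment epithelium.

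The promoter window of Met is shown because Met had the largest change of the 9 genes, and that of Egfr because its change was near 0. Each runs from 250 bases before to 50 bases after the gene's start, 5′ to 3′ on the gene's strand, from RefSeq with build GRCm38.p6. Capitals mark matches, on both strands, to the letters TGANTCA (AP-1), TTCNNNGAA (STAT), TTGCNNAA (C/EBP) or GGGCGG (GC box). Windows of 7 of the 10 genes were searched, and that of Btc, a further EGF family ligand.

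Met, chr6:17463707-17464006, plus strand: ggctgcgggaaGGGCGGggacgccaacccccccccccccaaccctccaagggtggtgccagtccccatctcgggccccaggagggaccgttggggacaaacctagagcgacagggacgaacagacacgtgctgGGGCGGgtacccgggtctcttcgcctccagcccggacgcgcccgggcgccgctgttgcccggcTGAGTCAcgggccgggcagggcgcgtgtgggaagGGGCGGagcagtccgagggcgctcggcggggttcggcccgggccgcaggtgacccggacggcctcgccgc

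Egfr, chr11:16751953-16752252, plus strand: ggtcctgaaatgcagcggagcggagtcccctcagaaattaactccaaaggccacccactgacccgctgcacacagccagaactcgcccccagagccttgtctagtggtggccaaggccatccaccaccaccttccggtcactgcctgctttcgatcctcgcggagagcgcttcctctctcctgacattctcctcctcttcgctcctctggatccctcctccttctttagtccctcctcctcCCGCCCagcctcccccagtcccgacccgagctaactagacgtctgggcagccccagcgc

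The Met window holds 1 AP-1 match, which begins 54 bases before the gene's start, and 3 GC boxes. It has no STAT or C/EBP match under these letters. The Egfr window holds 1 GC box, read on the opposite strand, and no other match. Over all 32851 RefSeq windows, 7.8% hold the AP-1 letters, 8.3% the STAT letters, 10.8% the C/EBP letters and 35.7% a GC box. The Met window has a GC content of 75.7% and that of Egfr 62.3%, against a median of 52.7%. The windows of Erbb2, Erbb4, Hgf and Btc hold none of the 4 motifs. A window of Egf holds 1 C/EBP match and another Egf window none, and the Areg window holds 2 GC boxes. A match is a description of the letters and not evidence of a bound factor.

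Met, the receptor of hepatocyte growth factor, rose strongly after light damage. Its log2 level was 6.11, 5.97 and 5.49 in dark adapted replicates 1 to 3 and 8.23, 8.16 and 8.07 in light damaged replicates 1 to 3. The gap between the groups was wider than the range within either, and the light damaged arrays were close to each other. The change was 2.30 ± 0.18 (SE), a 4.92-fold rise, with adjusted p = 0.000979 in limma over all genes. Of the 18193 genes, 22 had a larger rise. The other Met probe set gave 5.80, 5.52 and 5.68 in dark adapted and 6.95, 6.94 and 7.51 in light damaged replicates. Its groups were also apart, and its change of 1.47 ± 0.18 (SE) was smaller (limma adjusted p = 0.0129 over all probe sets). Between same-numbered arrays the main Met probe set differed by 2.11, 2.19 and 2.59. The Met call held with each array left out in turn (adjusted p up to 0.0111), whereas the second probe set lost it without dark adapted replicate 2 (adjusted p = 0.0746).

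**Figure D1:**
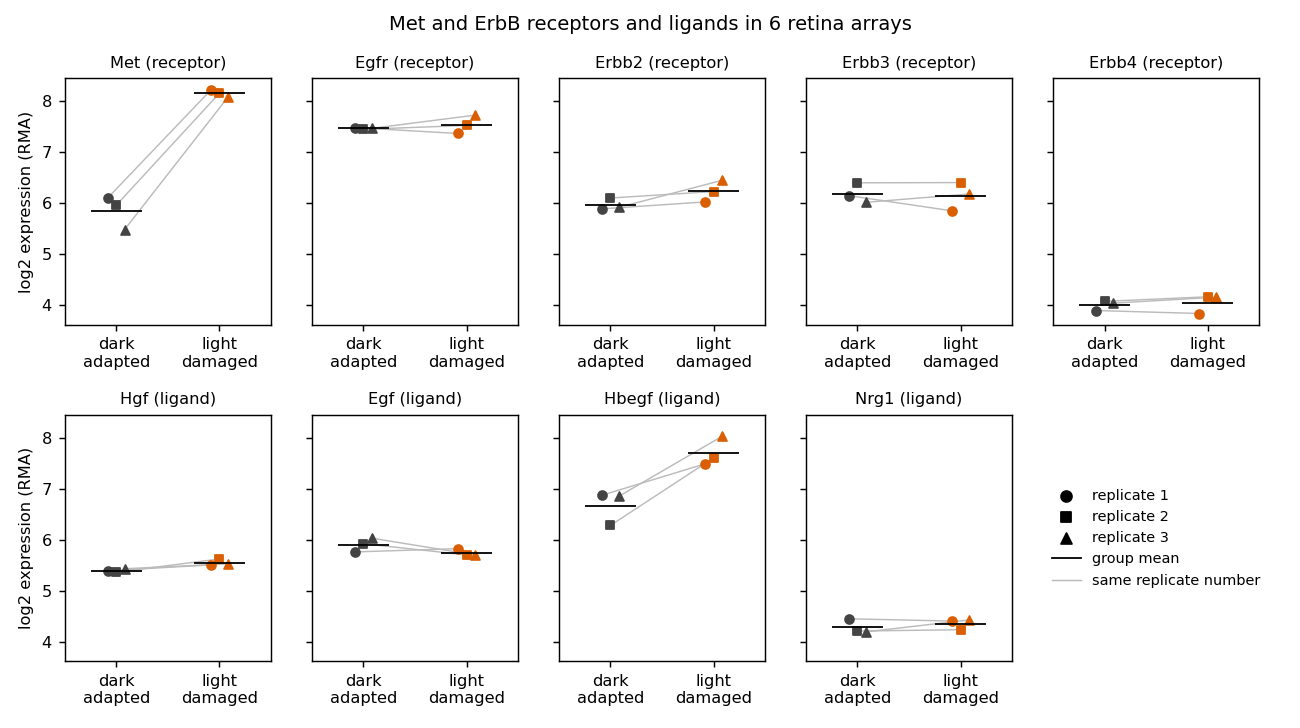
Each panel plots the log2 expression (RMA) of a gene, at its brightest probe set, on the 3 dark adapted (grey) and 3 light damaged (orange) arrays, with group means as black bars and grey lines joining arrays of the same replicate number. Met rises from between 5.49 and 6.11 to between 8.07 and 8.23 and Hbegf from between 6.29 and 6.88 to between 7.49 and 8.03, while Hgf moves by 0.16 and the groups overlap in the other 6 genes.

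Of the 9 genes, Met was the only gene called in the limma fit, and 8 were not called. Over all genes 1.74% were called higher and 0.269% lower, and no gene of the 9 was called lower. An unadjusted p under 0.05 was found for 2 of the 9, Met and Hbegf, against 11.0% of all genes. In the fit over all probe sets, 2 of the 20 were called higher, those of Met, against 0.913% of all probe sets. In 3 of the 9 genes the light damaged values all lay above the dark adapted ones, against 11.9% of all genes, and in 0 they all lay below, against 3.75%. These shares describe genes that were chosen with the comparison known, and nothing is read from them.

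The titles number the replicates 1 to 3 in each group, and same-numbered arrays deviated together from their group means. With the replicate number as a block, 2 of the 9 genes were called higher, Met (limma adjusted p = 1.63e-05) and Hbegf. The same fit called 6.73% of all genes higher and 2.13% lower. Over probe sets the block gave 4 of 20 higher, both of Met and both of Hbegf, against 3.48% of all probe sets.

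None of the 4 ErbB family receptors was called in limma, and an unadjusted p under 0.05 was found for 0 of them. Egfr, the EGF receptor, was at 7.48, 7.45 and 7.47 in dark adapted and 7.37, 7.53 and 7.73 in light damaged replicates. The light damaged values lay on both sides of the dark adapted ones, and the change of 0.07 had a 95% interval of -0.24 to 0.38. Egfr has 7 probe sets, whose changes ran from -0.07 to 0.26. In 6 of the 7 the groups overlapped. The exception was a probe set at 4.56, 4.74 and 4.71 in dark adapted and 4.94, 4.91 and 4.83 in light damaged replicates. Its values were below the lower quartile on all 6 arrays, and its change of 0.22 was not called (limma adjusted p = 0.729).

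Erbb2, the partner receptor without a ligand, was at 5.89, 6.10 and 5.92 in dark adapted and 6.03, 6.23 and 6.45 in light damaged replicates. The groups overlapped, since light damaged replicate 1 lay below dark adapted replicate 2. Its change was 0.26 with a 95% interval of -0.08 to 0.61 and was not called (limma adjusted p = 0.636). Each light damaged array was above its same-numbered dark adapted array, by 0.14, 0.13 and 0.53, and the block did not bring a call (adjusted p = 0.229).

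Erbb3, a receptor of neuregulins with little kinase activity of its own, was at 6.15, 6.40 and 6.02 in dark adapted and 5.85, 6.41 and 6.18 in light damaged replicates. The groups overlapped fully. Its change was -0.04 (95% interval -0.45 to 0.37), and its other probe set gave -0.01 (-0.36 to 0.34). In both groups of the main probe set, replicate 2 was the highest array.

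Erbb4, the other neuregulin receptor, was at 3.90, 4.08 and 4.05 in dark adapted and 3.84, 4.17 and 4.16 in light damaged replicates. Its change was 0.05 (95% interval -0.28 to 0.38). All 6 values lay below the lower quartile of their array, which ran from 4.98 to 5.11, so that a change of Erbb4 RNA may not be seen with this probe set. RMA compresses differences at such levels.

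**Figure D2:**
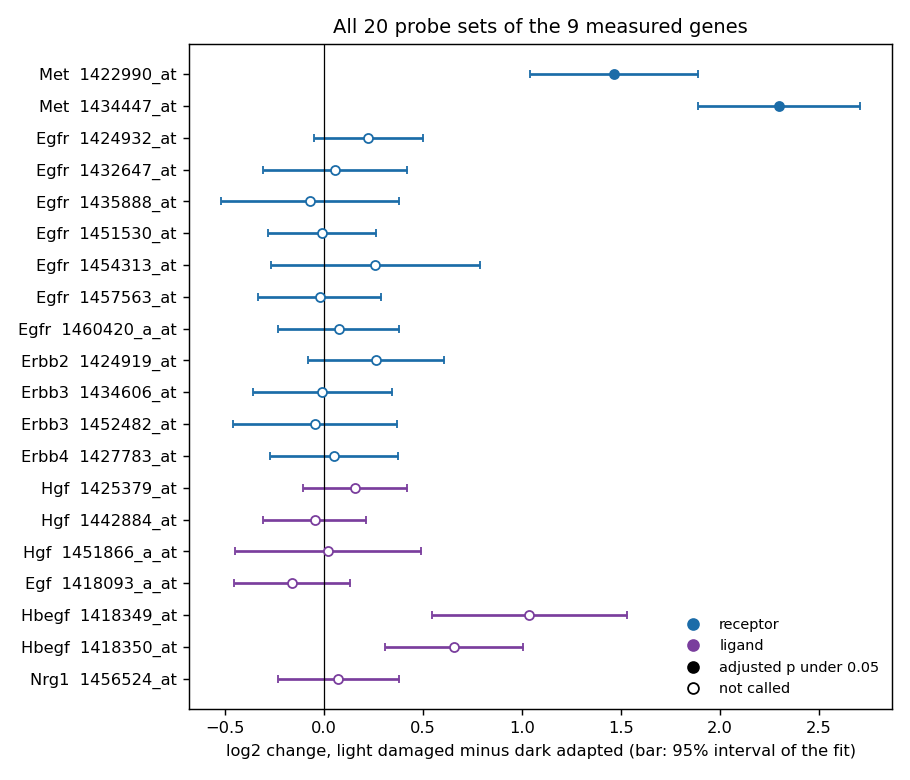
The points give the log2 change, light damaged minus dark adapted, of all 20 probe sets, with bars for the 95% interval of the limma fit over all probe sets, receptors in blue and ligands in purple, and filled points for an adjusted p under 0.05. The Met probe sets (1.47 and 2.30) are filled, the Hbegf probe sets (0.66 and 1.04) are open with intervals above 0, and the intervals of the other 16 include 0.

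Among the ligands, Hbegf had the largest change. It encodes heparin-binding EGF-like growth factor, which binds EGFR and ErbB4. Its log2 level was 6.88, 6.29 and 6.85 in dark adapted and 7.49, 7.61 and 8.03 in light damaged replicates. The groups did not overlap, and dark adapted replicate 2 was the lowest array. The change was 1.04 ± 0.21 (SE), 2.05-fold, and missed the threshold (limma adjusted p = 0.0513, and 0.00204 with the replicate block). The second Hbegf probe set was at 6.75, 6.68 and 6.96 in dark adapted and 7.32, 7.36 and 7.68 in light damaged replicates. Its groups did not overlap, and the change of 0.66 ± 0.15 (SE) was not called over all probe sets (limma adjusted p = 0.124, and 0.0137 with the block). Between same-numbered arrays the main probe set differed by 0.61, 1.32 and 1.17. Hbegf passed the threshold in the mean of its probe sets (adjusted p = 0.0421), with low genes left out (0.0433) and without dark adapted replicate 1 (0.0474). It reached an adjusted p of up to 0.214 when other arrays were left out.

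Hgf, the ligand of Met, was not called. It was at 5.40, 5.37 and 5.44 in dark adapted and 5.51, 5.63 and 5.53 in light damaged replicates. The groups were apart by a small step, with a change of 0.16 (95% interval -0.11 to 0.43, limma adjusted p = 0.773). Its 2 other probe sets gave -0.05 and 0.02 with overlapping groups, and were below the lower quartile on 5 and 2 of the 6 arrays. The difference between the Met and Hgf changes was not tested, because the genes were chosen with these changes known.

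Egf, the ligand that names the family, was at 5.77, 5.93 and 6.04 in dark adapted and 5.83, 5.71 and 5.71 in light damaged replicates. The groups overlapped at light damaged replicate 1, and the change was -0.16 (95% interval -0.46 to 0.14). Nrg1, the gene of neuregulin 1, a ligand of ErbB3 and ErbB4, was at 4.46, 4.22 and 4.20 in dark adapted and 4.41, 4.24 and 4.44 in light damaged replicates. Its groups overlapped, its change was 0.07 (95% interval -0.24 to 0.38), and all 6 values lay below the lower quartile of their array. In all, 4 of the 20 probe sets were below it on every array: those of Erbb4 and Nrg1 and 2 of Egfr.

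Set against each other, the 5 receptors had a mean change of 0.53 and the 4 ligands of 0.28. In the 3 same-numbered pairs of arrays the receptor mean was 0.36, 0.50 and 0.73 and the ligand mean 0.19, 0.35 and 0.29. The receptor mean lay above the ligand mean by 0.25 ± 0.16 (SD over 3 pairs). The medians were 0.07 for receptors and 0.11 for ligands, beside 0.03 over all genes. Without Met the receptor mean was 0.09, and without Hbegf the ligand mean was 0.02. No p is given for these scores, as the members were chosen with the changes known.

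The profile of Met over the 6 arrays was compared with that of every other gene, as the root mean square difference of values centred on each gene's own mean. The 3 closest genes were Bcl3, a partner of NF-kappaB (difference 0.109, change 2.41), Gbp6, an interferon-inducible GTPase (0.112, change 2.26), and Mt1, a metallothionein (0.134, change 2.32). Those closest to Hbegf were Sulf1, an extracellular enzyme that removes sulfate from heparan sulfate (0.1003, change 1.07), Rai14 (0.105, change 1.03) and Endou (0.113, change 0.91). Those closest to Erbb2 were Dglucy (0.0307), Slitrk3 (0.0353) and Galr2 (0.0355), none of them called in limma. The measure mainly reflects the size of the step between the groups.

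Among the other EGF family ligands, betacellulin rose. This list and those below were chosen with earlier results of these data known, so their counts are a description. Of 7 measured genes 1 rose, 0 fell and 6 were not called, with a median change of 0.00, beside 1.74% of all genes higher and a median of 0.03. For 1 of the 7 the unadjusted limma p was under 0.05, against 11.0% of all genes. Btc, the betacellulin gene, whose product binds EGFR and ErbB4, was at 7.34, 7.02 and 7.39 in dark adapted and 8.35, 8.25 and 8.15 in light damaged replicates. The groups were well apart, with a change of 1.00 ± 0.15 (SE, limma adjusted p = 0.0124). A second Btc probe set went from 4.95 to 5.64 and was not called over all probe sets (adjusted p = 0.161, and 0.0155 with the block). The Btc call was lost when each of 4 arrays was left out, dark adapted replicate 2 and light damaged replicates 1, 2 and 3 (adjusted p up to 0.0665), and after centring on reference genes (adjusted p = 0.112). The other 6 genes, Tgfa, Ereg, Epgn, Nrg2, Nrg3 and Nrg4, had changes from -0.32 to 0.14.

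In the list of HGF activating proteases, their inhibitors and partners of Met, 1 of 13 genes rose, 0 fell and 12 were not called (median change 0.18), beside 1.74% of all genes higher and 0.269% lower. For 3 of the 13 the unadjusted limma p was under 0.05, against 11.0% of all genes. The gene that rose was Cd44, the hyaluronan receptor, which can act as a coreceptor of Met. It was at 7.39, 6.46 and 7.35 in dark adapted and 9.67, 9.53 and 9.80 in light damaged replicates. The groups were far apart, with a change of 2.60 ± 0.25 (SE), and limma gave adjusted p = 0.00187. A further Cd44 probe set gave -0.20, and the other 2 gave 2.34 and 2.70. The list also holds Hgfac, St14 and Hpn, proteases that activate HGF, at -0.08, 0.18 and 0.31, and their inhibitors Spint1 and Spint2 at -0.02 and 0.07. Mst1r, the receptor most like Met, was at -0.16. With the block 2 were called higher, beside 6.73% of all genes, and the second was the integrin gene Itgb4 (0.44, adjusted p = 0.0397).

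No gene of ligand shedding was called in limma among 12 measured (median change 0.08). An unadjusted p under 0.05 was found for 1, against 11.0% of all genes, and 1 was called higher with the block, against 6.73%, so these counts are near the background. Adam17 and Adam10, the main shedding proteases of EGF family ligands, had changes of 0.03 and 0.14. The smallest p belonged to Rhbdf1, an inactive rhomboid protein that regulates Adam17, with a change of 0.40 ± 0.12 (SE, limma adjusted p = 0.202, and 0.0468 with the block).

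Of 22 adaptors and proximal effectors, 1 rose, 0 fell and 21 were not called (median change 0.18), beside 1.74% of all genes higher. For 6 of the 22 the unadjusted limma p was under 0.05, against 11.0% of all genes. With the block 3 rose, beside 6.73% of all genes. Without dark adapted replicate 1 the count was also 3, but the share of all genes called in that fit is not given here. Stat3, a transcription factor downstream of many cytokine and growth factor receptors, was at 9.18, 8.43 and 8.72 in dark adapted and 10.75, 10.31 and 10.58 in light damaged replicates. The groups were apart by more than the spread of either, with a change of 1.77 ± 0.21 (SE, limma adjusted p = 0.00475). Of its 3 other probe sets, 2 gave 1.92 and 1.39 and the other -0.04. With the block the kinases Akt1 and Akt2 were also called (0.65 and 0.71, adjusted p = 0.00592 and 0.00637). Gab1, Grb2 and Shc1, adaptors that bind the activated receptors, had changes of 0.35, 0.16 and 0.04. Of 7 measured genes of the RAS to ERK cascade 0 were called with or without the block (median change 0.36), an unadjusted limma p under 0.05 was found for 0, and Map2k2 had the smallest p (0.36, limma adjusted p = 0.542).

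Of 22 genes for feedback and degradation of the receptors, 1 rose, 0 fell and 21 were not called (median change 0.16), beside 1.74% of all genes higher. For 4 of the 22 the unadjusted limma p was under 0.05, against 11.0% of all genes. With the block 3 rose, beside 6.73%. Ptpn1, a tyrosine phosphatase that acts on EGFR and Met, rose by 0.89 ± 0.13 (SE, limma adjusted p = 0.0124). Its second probe set gave 0.53 (adjusted p = 0.232 over all probe sets), and the call was lost without dark adapted replicate 2 or light damaged replicate 2 or 3 (adjusted p up to 0.0763) and after centring on reference genes (adjusted p = 0.125). With the block Spry2 and Spred2, inhibitors of the RAS to ERK cascade, were called too (0.47 and 0.40). Errfi1, an inhibitor of EGFR that EGF induces, had a change of 0.02, and the ubiquitin ligase Cbl had 0.25.

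**Figure D3:**
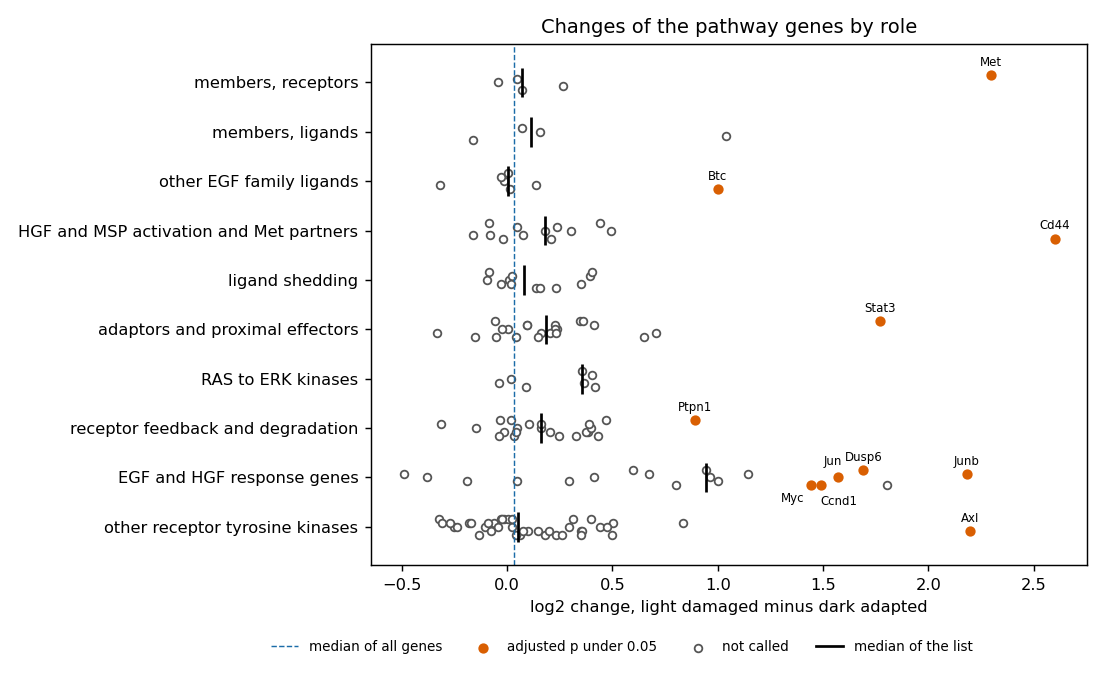
Each row plots the log2 change, light damaged minus dark adapted, of the measured genes of a list, with called genes in orange and named, the list median as a black bar and the median of all genes (0.03) as a dashed line. The response genes have the highest list median (0.94), and each of the other lists has at most 1 called gene. The lists were chosen with earlier results of these data known.

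Several genes that EGF and HGF are known to induce rose. Of 19 measured, 5 rose, 0 fell and 14 were not called, beside 1.74% of all genes higher and 0.269% lower. The median change was 0.94, beside 0.03 over all genes. An unadjusted limma p under 0.05 was found for 15 of the 19, against 11.0% of all genes. With the block 14 rose and 0 fell, beside 6.73% of all genes higher. Many of these genes also respond to cytokines and stress, and the list does not single out Met or ErbB signals. The list was chosen with earlier results of these data known, so these shares are a description and not independent evidence. Junb was at 6.91, 6.27 and 7.03 in dark adapted and 9.03, 8.78 and 8.94 in light damaged replicates, with a change of 2.18 ± 0.21 (SE, limma adjusted p = 0.0019). Dusp6, a phosphatase of ERK that ERK signalling induces, was at 7.13, 6.51 and 6.93 in dark adapted and 8.93, 8.78 and 7.93 in light damaged replicates. Its groups did not overlap, but light damaged replicate 3 was lower than the other two. The change was 1.69 ± 0.28 (SE, limma adjusted p = 0.021), and the call was lost without dark adapted replicate 2 or 3 or light damaged replicate 1 or 2 (adjusted p up to 0.0941).

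Jun, the partner of Fos in AP-1, changed by 1.57 ± 0.17 (SE, limma adjusted p = 0.00292), and its second probe set by 0.87. The last genes called were Ccnd1, cyclin D1 (1.49, limma adjusted p = 0.00359), and Myc (1.44, 0.00871). The changes of Fos and Egr1 were as large as 1.14 and 1.80 but dark adapted replicate 2 was well below the other dark adapted arrays in both, and neither was called (limma adjusted p = 0.407 and 0.183, and 0.0367 and 0.00935 with the block). Dusp4, Dusp1 and Ptgs2 had negative changes that were not called (-0.38, -0.19 and -0.49). The list's count without dark adapted replicate 1 was 8. The share of all genes called in that fit is not given here, so nothing is read from this count.

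**Figure D4:**
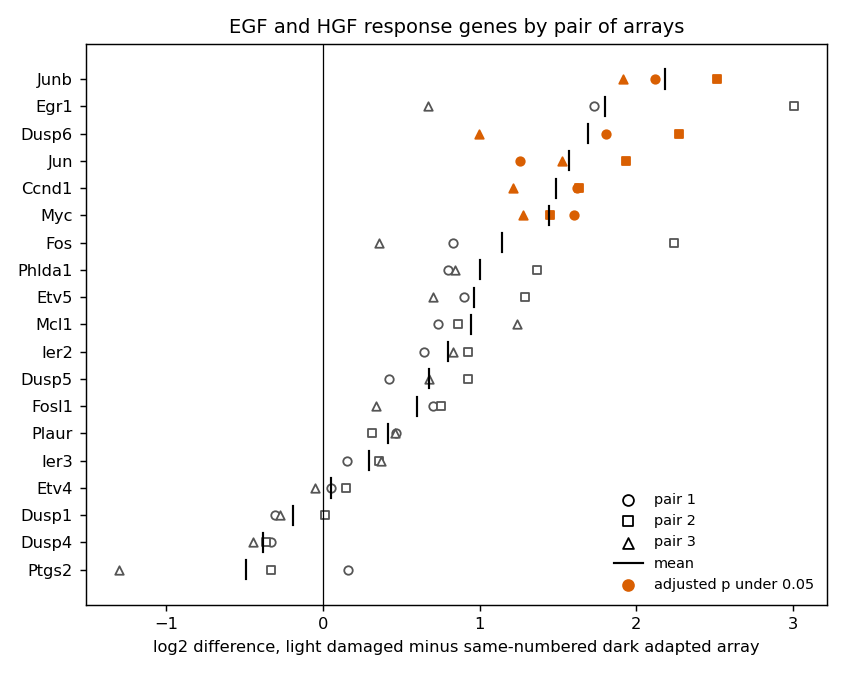
Each row gives, for a gene that EGF and HGF are known to induce, the log2 difference of each light damaged array from the same-numbered dark adapted array (circle, square and triangle for pairs 1, 2 and 3) with the mean as a black bar and called genes in orange. In 15 of the 19 genes all 3 pairs lie above 0, a count whose share over all genes was not taken. All light damaged values lay above all dark adapted ones in 13 of the 19, against 11.9% of all genes. They all lay below in 1, against 3.75%. The list was chosen with earlier results of these data known, so these counts are a description. The values of Egr1 and Fos are spread more widely than those of Junb, Jun, Ccnd1 and Myc.

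Among 40 other receptor tyrosine kinases, 1 rose, 0 fell and 39 were not called, with a median change of 0.05, beside 1.74% of all genes higher. For 9 of the 40 the unadjusted limma p was under 0.05, against 11.0% of all genes. The gene called was Axl, a receptor of the phagocytic TAM family, at 6.98, 6.12 and 6.94 in dark adapted and 8.85, 8.85 and 8.95 in light damaged replicates. Its groups were far apart, with a change of 2.20 ± 0.23 (SE, limma adjusted p = 0.00264), although a dim second probe set gave 0.08. Of the 45 receptor tyrosine kinases measured among the members and this list, Met and Axl were thus those called. Mst1r, listed with the partners of Met, was not called either. With the block 6 of the 40 rose and 0 fell, beside 6.73% of all genes higher and 2.13% lower, among them Fgfr1 (0.84, limma adjusted p = 0.00121 with the block and 0.0662 without), which was chosen after seeing its values. The count was 2 after a second quantile normalization, which called 325 of 18193 genes higher, against 316 in the main fit. It was also 2 without dark adapted replicate 1, for which the share of all genes is not given here.

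Markers of cell types that can carry these receptors moved in part. The counts below stand beside 1.74% of all genes called higher and 0.269% called lower. Of 10 Müller glia markers 1 rose, 0 fell and 9 were not called, with mean log2 levels of the list from 9.79 to 10.07 in dark adapted and 9.99 to 10.31 in light damaged arrays. Of 5 astrocyte markers 2 rose and 0 fell (6.88 to 7.17 against 7.62 to 7.82). The genes of the astrocyte list that rose were Gfap (1.75) and Aldh1l1 (2.27). The other 3, S100b, Aqp4 and Pdgfra, had changes of -0.26, -0.20 and 0.03 that were not called. The median of the list was 0.03, and Aqp4 is also in the Müller glia list. In which cells Gfap and Aldh1l1 rose was not tested. The gene of the Müller glia list that rose was Vim (1.67). Of the 10 Müller glia markers 5 had a negative change, among them Glul, glutamine synthetase (-0.99, limma adjusted p = 0.0652, and 0.000775 with the block), and Rlbp1, a retinoid-binding protein (-0.50, 0.625, and 0.0329 with the block). Of 8 microglia and macrophage markers 1 rose, Cd68 (1.88), and 0 fell (5.57 to 5.79 against 5.89 to 6.08). Of the 8 microglia and macrophage markers, 3 had a mean level below the lower quartile. Of 10 markers of the retinal pigment epithelium 0 were called, with overlapping list means (6.81 to 7.31 against 7.01 to 7.59). These means average markers that went both ways, from -0.65 for Tyrp1 to 0.99 for Ttr. Rgr was at 7.31, 8.17 and 5.97 in light damaged replicates 1 to 3. Of 8 vascular endothelium markers 0 were called, with means just apart (6.68 to 6.80 against 6.81 to 6.84). No marker was called among 5 of pericytes and smooth muscle (7.05 to 7.28 against 7.07 to 7.42), 5 of oligodendrocytes and Schwann cells (6.65 to 6.89 against 6.68 to 6.78), 8 of lens and cornea (8.52 to 9.64 against 8.43 to 9.62) and 4 of blood cells (4.78 to 5.11 against 4.88 to 5.04). Of 6 rod markers 1 fell, Nrl (-1.04), and 0 rose (12.12 to 12.61 against 11.64 to 12.06). An unadjusted limma p under 0.05, found for 11.0% of all genes, was found for 6 of the 10 Müller glia markers, 4 of the 8 microglia, 4 of the 6 rod and 2 of the 5 astrocyte markers. It was found for 1 marker each of pigment epithelium and endothelium, and for 0 of the pericyte, oligodendrocyte, lens and blood cell lists. With the block 5 Müller glia markers rose and 2 fell, 2 microglia markers rose and 1 fell, 1 marker each of pigment epithelium and endothelium rose, 2 of lens and 3 of rods fell, and the other counts were as without it, beside 6.73% of all genes higher and 2.13% lower. Of 6 reference genes 0 were called in limma, with a mean change of 0.16. Actb, a cytoskeletal actin, was the 1 gene of them with an unadjusted p under 0.05 (change 0.70, adjusted p = 0.091, and 0.0112 with the block). The part of these cell types in the rise of Met was not tested.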

How the data were processed

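RNA of retinas was measured on 6 Affymetrix arrays, 3 in each group, grouped by the sample titles. The deposited values are log2 expression that the authors made with RMA, per the submitters' processing notes (version: not given in the sources used here). They were used as deposited. Of 45101 probe sets 64 are controls, and GEO's platform annotation assigns 34945 to 1 gene, 932 to several and 9160 to none. A gene was read at its probe set with the highest mean. Groups were compared with limma 3.58.1 in R 4.3.3 over all 18193 genes, and separately over all 45037 probe sets, with Benjamini-Hochberg adjustment over all of them; called means an adjusted p under 0.05. The fit was tested on simulated data. Deviations of same-numbered arrays from the group means correlated at 0.731, 0.618 and 0.432 over probe sets, all over the limit of 0.1 used here, which was taken as pairing; no label states it. The members and lists were chosen with earlier results of these data known. The genes named were all members, up to 3 called genes of a list by size of change or else the gene with the smallest p, and the 3 closest profiles; others were named after their values were seen. Alternatives were the replicate block, other choices of probe set, scalings, a filter on low values, a variance trend and leaving out each array.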

Additional observations from a re-analysis of the deposited data

How the results depend on the processing

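The number of the 9 genes called was 1, and 2 with the replicate block, with the mean of probe sets and with low values left out, each time by adding Hbegf; with 1 array left out it was 1 to 2, with 2 without dark adapted replicate 1. The number of probe sets called was 2, 4 with the block and 1 to 2 with 1 array left out, with 1 without dark adapted replicate 2. Over the pathway lists 10 genes were called higher, 30 with the block and 7 to 16 with 1 array left out, with 16 without dark adapted replicate 1. The shares of all genes called with 1 array left out are not given here, so nothing about the lists is read from those counts. The receptor mean minus the ligand mean moved by less than 1 SD over pairs under every alternative run. Several changes near 0 changed sign. Centring on the reference genes moved the median change of all genes from 0.03 to -0.13 and turned the sign for Egfr (-0.090), Erbb4 (-0.11), Hgf (-0.0074), Nrg1 (-0.093), an Egfr probe set (-0.11) and an Hgf probe set (-0.14). A second quantile normalization turned an Erbb3 probe set (0.012). With 1 array left out, the change ran from -0.020 to 0.159 for Egfr, from -0.173 to 0.104 for Erbb3 and from -0.0066 to 0.157 for Erbb4. For further probe sets it ran, in Egfr, from -0.054 to 0.200, from -0.232 to 0.101, from -0.064 to 0.029 and from -0.078 to 0.067, in Erbb3 from -0.114 to 0.106 and in Hgf from -0.134 to 0.168. None of these was called in limma under any alternative run, and the cause was not tested. The dim probe sets of Erbb4 and Nrg1, left out by the filter on low values, limit what can be said of both genes.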
